A study of Mus musculus with 8 samples.

Results

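Effector Th17 cells were compared with naïve CD4 T cells by RNA sequencing. The comparison used 4 of the 8 libraries, 2 of effector Th17 cells and 2 of naïve CD4 T cells, which were taken by their sample labels. The cells of every group came from DO11.10 Tg mice aged 6 to 12 weeks, whose transgenic TCR recognizes an ovalbumin (OVA) peptide. Naïve cells were splenic CD4+ cells sorted as CD44low CD62Lhi and sequenced without culture. Th17 cells were such naïve cells cultured for 6 days on irradiated BALB/c splenocytes from which T cells had been removed, with OVA peptide at 0.3 μM, in the presence of IL-6, IL-1β and IL-23 at 10 ng/ml each and of anti-IL-4 Ab and anti-IFN-γ Ab at 10 μg/ml each. No IL-2 is listed for these cultures. Effector Th1 and Th2 cells, with 2 libraries each, came from cultures of the same length with 30 U/ml IL-2. Th1 cultures received IL-12 at 100 U/ml with anti-IL-4 Ab at 1 μg/ml, and Th2 cultures IL-4 at 100 U/ml with anti-IFN-γ Ab at 10 μg/ml. Antigen stimulation, time in culture, cytokines and RNA left by the splenocytes therefore cannot be told apart in a difference between Th17 and naïve cells. The labels do not say whether the 2 libraries of a group came from separate mice or cultures, so p-values measure only the spread between these libraries, which may be technical.

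Th17 cells are CD4 helper T cells that secrete IL-17A and IL-17F, act on epithelial cells and neutrophils, and are known for defense against extracellular bacteria and fungi and for tissue inflammation. IL-6 acts through STAT3 to start their program, IL-1β adds to it, and IL-23 maintains it through a receptor that naïve cells lack. Naïve CD4 T cells are small resting cells that recirculate through lymph nodes. Once an antigen is recognized they grow, switch to aerobic glycolysis and divide.

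Expression was measured as FPKM, which counts the fragments of a gene relative to its exon length and to the total of mapped fragments, and compared on the log2(FPKM + 1) scale, which understates the change of genes with a low FPKM. Of 23284 genes listed, 11088 averaged 1 FPKM or more across the 4 libraries and were tested with limma, in a fit that also held the Th1 and Th2 libraries. A gene was called higher or lower at an adjusted p-value under 0.05 and a difference of at least 1. A gene under 1 FPKM in both libraries of a group could be tested only through the other group. This fixed the direction of its difference in mean FPKM. The fragments implied by the confidence intervals of the files numbered 14097855 and 14472779 in the naïve libraries and 21054904 and 16712429 in the Th17 libraries. Pearson's r across genes was 0.955 between the naïve libraries, 0.952 between the Th17 libraries and 0.677 to 0.702 between a naïve and a Th17 library. These are descriptions of the libraries, since genes are not independent replicates. The T cell markers *Cd3e*, *Cd3d*, *Cd3g*, *Cd4*, *Cd2*, *Cd5* and *Lck* were at 78.6 FPKM or more in each of the 4 libraries, and *Il17a*, *Il17f* and *Il23r* were at 28.9 FPKM or more in both Th17 libraries and at most 0.628 in the naïve libraries. These are bulk samples, in which fewer cells of a type and less RNA per cell cannot be told apart.

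Between Th17 and naïve cells, 2236 genes were called higher, 20.2% of those tested, and 1309 lower, 11.8%. The split depended on the scaling. As deposited, 63.1% of the calls were higher in Th17 cells, whereas quantile normalization gave 1774 higher and 1898 lower genes, or 48.3% higher. The median difference over all genes tested was 0.05 as deposited and -0.12 with quantile normalization. Counts of called members in the lists below are to be read beside the shares of 20.2% and 11.8%. Symbols that name only a clone or predicted model were left out of the rankings that follow. The 12 largest rises began with *Il17f* and held *Il17a*, *Il22*, *Il24*, *Tgm2*, *Ly6c1*, the interferon-induced membrane protein genes *Ifitm1* and *Ifitm2*, the metallothionein genes *Mt1* and *Mt2*, which bind zinc and copper, and the inhibitory receptor gene *Lilrb4* with its near copy *Gp49a*. *Ifitm1* had 0.79 and 0.604 FPKM in the naïve libraries and 1109 and 1016 in the Th17 libraries, a difference of 9.29 (standard error 0.12, adjusted p = 7.76e-08, limma). *Mt1* rose from 0.777 and 0.389 to 679 and 609 FPKM. The largest falls among protein-coding genes were those of *Atp1b1*, a subunit of the sodium-potassium pump, *Dapl1*, *Slc16a5*, *Pdlim4*, *Arl5c*, *Fam101b*, *Rasgrp2*, a guanine nucleotide exchange factor for Rap1, and *Dtx1*, a regulator of Notch signaling. *Rasgrp2* fell from 139.9 and 152 FPKM to 2.43 and 2.75 and *Dtx1* from 41.8 and 56.9 to 0.353 and 0.437. The other 4 of the 12 largest falls were small RNAs, *Mir324*, *Snord88c*, *Mir568* and *Mir7-1*, whose naïve values rested on at most 8 implied fragments. The plot of mean levels in naïve and Th17 cells places these genes among the others.

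**Figure D1:**
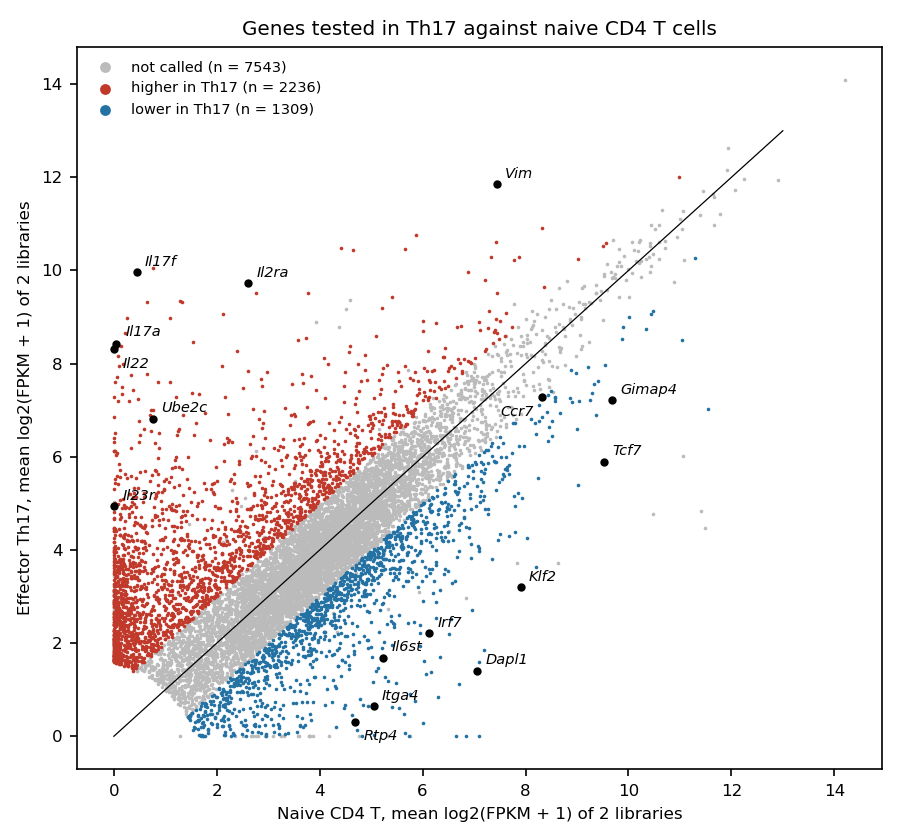
Mean log2(FPKM + 1) of the 2 naïve libraries (x axis) against that of the 2 Th17 libraries (y axis) for the 11088 genes tested, with the 2236 genes called higher in red, the 1309 called lower in blue and the others in gray, and the line of equality in black. *Il17f*, *Il17a* and *Il22* stand near 0 on the naïve axis at 979 and 1013, 347 and 335 and 238 and 419.9 FPKM in the Th17 libraries, whereas *Dapl1*, *Klf2* and *Tcf7* lie below the line.

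The Th17 cytokine list held 9 genes, of which 7 were tested and all 7 rose, against 20.2% of all genes tested (median difference 5.34). *Il17a*, *Il17f*, *Il21* and *Il22* were under 1 FPKM in both naïve libraries and were tested only through their Th17 values. Their direction was thus set by the filter and is no support for the count. *Il17f* (chromosome 1, 20777146 to 20784270, mm10) had 0.628 and 0.135 FPKM in the naïve libraries and 979 and 1013 in the Th17 libraries, a difference of 9.52 (standard error 0.31, adjusted p = 4.1e-07, limma). *Il17a* (chromosome 1, 20730905 to 20734496) had 0.0452 and 0 FPKM in the naïve and 347 and 335 in the Th17 libraries, a difference of 8.39 (standard error 0.14, adjusted p = 7.76e-08, limma). In both genes the libraries of a group lay close together and far from those of the other group, and *Il17f* mRNA was the more abundant of the 2 per exon length. *Il22*, which acts on epithelial cells, was at 0 in both naïve libraries and at 238 and 419.9 FPKM in the Th17 libraries. Its near-identical copy *Iltifb* was at 123 and 194 FPKM, so how reads were divided between them is uncertain. *Il21*, a cytokine that acts back on T cells and on B cells, rose from 0.0761 and 0.0306 to 42.3 and 41.1 FPKM and *Lta*, which encodes lymphotoxin α, from 12.1 and 10.0 to 365 and 358. *Csf2*, the gene of GM-CSF, reached 4.08 and 4.99 FPKM and *Tnf* 26.8 and 30.6. *Ccl20*, the ligand of CCR6, and *Il10* were not tested, with at most 0.0522 and 0.901 FPKM in a Th17 library. Where both naïve libraries were at or near 0, as for *Il17a* and *Il22*, the size of the difference depends on the value of 1 added before the logarithm.

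The promoters of *Il17a* and *Il17f* are shown because these 2 cytokines define the cells. Each sequence is the 250 bases before the gene start on the strand of the gene (RefSeq, GRCm38.p6), and capitals mark AGGTCA, the core of a site bound by nuclear receptors such as RORα, or its reverse complement TGACCT. *Il17a* is read from chr1:20730655-20730904 on the plus strand, with its match 120 to 115 bases before the start on the opposite strand, and *Il17f* from chr1:20784271-20784520 on the minus strand, with its match 58 to 53 bases before the start.
Il17a: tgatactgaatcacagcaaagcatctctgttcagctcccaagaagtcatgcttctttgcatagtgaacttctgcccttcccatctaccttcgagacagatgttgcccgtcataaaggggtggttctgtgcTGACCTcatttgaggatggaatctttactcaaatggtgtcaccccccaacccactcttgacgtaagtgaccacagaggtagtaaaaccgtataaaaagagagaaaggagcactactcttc
Il17f: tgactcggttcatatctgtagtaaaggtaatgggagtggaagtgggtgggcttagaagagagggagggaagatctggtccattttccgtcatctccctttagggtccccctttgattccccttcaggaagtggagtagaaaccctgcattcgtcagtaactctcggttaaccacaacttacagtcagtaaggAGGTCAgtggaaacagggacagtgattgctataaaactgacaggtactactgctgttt
Searched on both strands, AGGTCA was in 10.7% of the 10008 promoters of this length found for 7861 of the genes tested, and in 2 of the 7 promoters of the tested Th17 cytokines. A match in these letters is a description and not a bound site.

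Of the 11 tested Th17 transcription factors, 7 were called higher and 2 lower (median 1.89), where 11.8% of all genes were lower. *Rora*, the gene of RORα, had 0.909 and 2.41 FPKM in the naïve and 9.56 and 13.6 in the Th17 libraries, a difference of 2.29 (standard error 0.31, adjusted p = 0.00047, limma). *Bhlhe40* rose from 0.705 and 0.935 to 174 and 213 FPKM, *Irf4*, which cooperates with BATF downstream of the TCR, from 1.62 and 2.15 to 165 and 164, and *Hif1a* from 15.7 and 16.4 to 286 and 270.2. *Batf* rose by less, from 25.8 and 23.6 to 89.8 and 99. These increases were present in both Th17 libraries. *Stat3*, which transmits the IL-6 and IL-23 signals, had 42.8 and 59.7 FPKM in the naïve libraries and 79.5 and 96.5 in the Th17 libraries, a difference of 0.78 that was under the fold threshold (adjusted p = 0.00721, limma). *Maf* rose from 1.94 and 1.99 to 8.61 and 6.54 FPKM but was higher in the Th1 (27.5 and 20.5) and Th2 (95.5 and 104) libraries. *Runx1* and *Ikzf3*, the gene of Aiolos, fell, with differences of -1.25 and -2.51. *Nfkbiz* had a difference of -0.88, under the fold threshold. *Ahr*, the aryl hydrocarbon receptor, was not tested, with 0.574 and 0.713 FPKM in the Th17 libraries.

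Among the 13 receptors for IL-6, IL-1, IL-23 and related signals, 5 were called higher and 5 lower (median -0.49). Of all genes, 20.2% were called higher and 11.8% lower. *Il23r* (chromosome 6, 67422932 to 67491855), the specific chain of the IL-23 receptor, was at 0 in both naïve libraries and at 28.9 and 30.3 FPKM in the Th17 libraries, a difference of 4.93 (standard error 0.09, adjusted p = 8.68e-08, limma). Its partner chain *Il12rb1* rose from 2.16 and 4.1 to 38.5 and 49.5 FPKM. *Il1r1*, the signaling receptor of IL-1, was at 0 and 0.00968 FPKM in the naïve and 11.2 and 12.3 in the Th17 libraries. *Il1r2*, a decoy receptor that binds IL-1 without signaling, was at 0 and 0.115 FPKM in the naïve and 125 and 169 in the Th17 libraries. Per exon length, the decoy was thus the more abundant of the pair in each Th17 library. *Ccr6*, the receptor of CCL20, rose from 0.429 and 1.15 to 6.71 and 8.54 FPKM. Both chains of the IL-6 receptor fell. *Il6st*, which encodes the shared signaling chain gp130, had 31.1 and 42.9 FPKM in the naïve libraries and 1.82 and 2.69 in the Th17 libraries, a difference of -3.54 (standard error 0.23, adjusted p = 1.05e-05, limma). *Il6ra* had 52.3 and 73.4 FPKM in the naïve libraries and 17.6 and 22.1 in the Th17 libraries, a difference of -1.60. *Tgfbr1*, *Tgfbr2* and *Il17ra* fell by 1.34, 1.75 and 1.51 on the log2 scale. *Il1rap*, *Il21r* and *Il18r1* were not called, with differences of -0.77, 0.65 and -0.49.

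The Th17 genes were also set against the other effector cultures, by testing Th17 minus the mean of Th1 and Th2 without the naïve libraries. This comparison uses the same 2 Th17 libraries. Over all genes, 417 were called higher, 3.76%, and 123 lower, 1.11%, with a median difference of 0.13. This split depended on the scaling too, with 77.2% of the calls higher as deposited, 67.7% after median scaling (338 higher, 161 lower, median 0.01) and 58.2% after quantile normalization (291 higher, 209 lower, median -0.03). Since genes were kept by their mean in the naïve and Th17 libraries, genes expressed in Th1 or Th2 cells alone were left out of the lower count. Of the tested Th17 cytokines, 6 were called higher and 0 lower, the exception being *Tnf* at 0.81. *Rora* was at 4.4 and 6.17 FPKM in the Th1 and 2.25 and 3.23 in the Th2 libraries, a difference of 1.37 (standard error 0.27, adjusted p = 0.00946, limma). *Il23r* was at 1.61 and 1.6 FPKM in the Th1 libraries and 0 in both Th2 libraries, and *Il1r1* and *Ccr6* were higher in Th17 cells by 2.23 and 2.87. For the chains of the IL-6 receptor the comparison gave opposite directions, with *Il6ra* above the other effector cells (1.79) and *Il6st* below them (-2.34). *Lta* differed by 1.80 although its Th1 libraries, at 412 and 372 FPKM, lay above the Th17 libraries, since Th2 cells had 26.3 and 26.6. The mean of 2 unlike groups hid such spread in other genes too, as for *Il18r1*, whose Th17 level of 16.4 and 16.6 FPKM stood between 122 and 137 for Th1 and 0.666 and 0.935 for Th2.

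**Figure D2:**
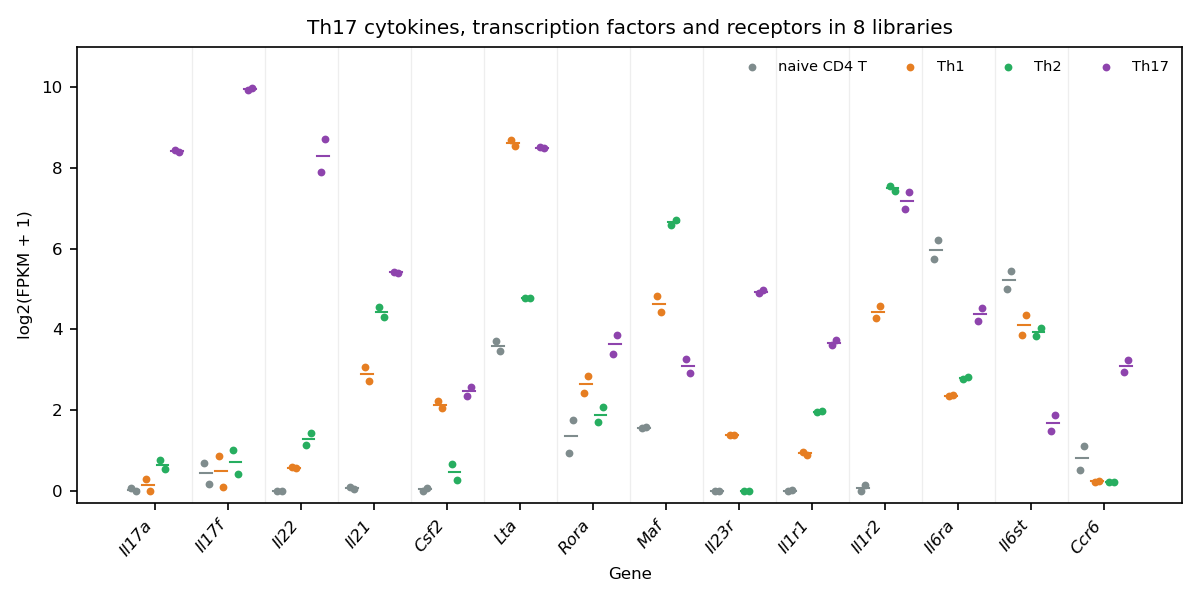
Expression of 14 Th17 genes as log2(FPKM + 1) (y axis) in each of the 8 libraries, where points are libraries, short lines are means of 2, and colors are the 4 groups. *Il17a*, *Il17f*, *Il22*, *Il23r*, *Il1r1* and *Ccr6* stand above the libraries of the other 3 groups in both Th17 libraries, *Il6st* stands below them, and *Il6ra* falls between the naïve and the other effector libraries.

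Several genes of IL-2 signaling rose in Th17 cultures, which unlike the Th1 and Th2 cultures had no IL-2 listed. Of 12 tested members of the IL-2 and STAT5 pathway, 7 were called higher and 1 lower against naïve cells, and none passed both thresholds against the mean of Th1 and Th2 (limma, adjusted p = 0.0125 to 0.922, differences -0.59 to 0.62). Since 3.76% of all genes were called higher and 1.11% lower in that comparison, a count of 0 among 12 is near the share of all genes. *Lif* rose from 0.231 and 0.354 FPKM to 172 and 170.0, *Pim1*, a kinase induced by STAT5, from 66.9 and 68.9 to 302 and 315 and *Jak3* from 39.8 and 61.4 to 229 and 267. *Il2ra* was at 865 and 821 FPKM in the Th17 libraries, 611 and 604 in Th1 and 787 and 644 in Th2. *Jak1* fell from 142 and 154 to 49.3 and 56 FPKM. *Il2* itself was not tested, with 0.795 and 0.446 FPKM in the Th17 libraries. *Il7r*, the receptor chain of IL-7, had 90.6 and 76.5 FPKM in the naïve libraries and 71.8 and 61.9 in the Th17 libraries and was not called (-0.32). Among 8 genes of the SOCS family, which terminate cytokine signals, 3 were called higher and 0 lower. Over all genes, 20.2% were called higher and 11.8% lower against naïve cells. *Cish*, a target of STAT5, had 18.4 and 15.6 FPKM in the naïve and 244 and 260.1 in the Th17 libraries, a difference of 3.82 (standard error 0.13, adjusted p = 4.76e-07, limma). *Socs2* rose from 0.84 and 0.845 to 75.5 and 69.2 FPKM and *Socs1* from 35.5 and 35 to 146 and 178. *Socs3*, a feedback inhibitor of gp130 and STAT3, had 78.2 and 75.2 FPKM in the naïve libraries and 72.7 and 82.4 in the Th17 libraries, and its difference was 0.01 (standard error 0.11, adjusted p = 0.92, limma). *Cish* and *Socs1* had differences of -0.02 and 0.01 from the mean of Th1 and Th2.

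Genes of other helper subsets were present in part. Of 9 tested Th1 genes, 5 were called higher and 1 lower against naïve cells, where 20.2% and 11.8% of all genes were. *Il12rb2*, the inducible chain of the IL-12 receptor, rose from 0.509 and 0.768 to 110.3 and 129 FPKM, *Hlx* from 0.0449 and 0.0226 to 19.9 and 20.8 and *Cxcr3* from 1.55 and 3.41 to 11.3 and 11.5. *Tbx21*, which encodes T-bet, was at 1.62 and 1.66 FPKM in the Th17 and 45.1 and 50.7 in the Th1 libraries, and *Ifng* was not tested, with 0.433 and 2.19. Of 8 tested Th2 genes, 6 were called higher and 1 lower. *Nfil3* and *Ccr4* rose by 5.65 and 5.24, and *Il4* and *Il13* were at 0 in both naïve libraries. *Il4* was at 5.0 FPKM in both Th17 libraries, against 129 and 97.6 in Th2, and *Il13* at 7.09 and 12 FPKM, against 150.2 and 143 in Th2. *Gata3*, the Th2 master regulator, fell from 20.2 and 20.4 to 5.83 and 9.19 FPKM. Of 10 regulatory T cell genes, 7 were called higher and 0 lower, with 1 lower without naïve replicate 1 or Th17 replicate 2. *Foxp3* had 6.68 and 12.8 FPKM in the naïve libraries and 3.03 and 5.76 in the Th17 libraries, a difference of -0.98 that did not reach the fold threshold, and it was above the mean of Th1 and Th2 by 1.60. *Ikzf4*, *Ebi3*, *Lrrc32* and *Itgae* rose by 2.92, 4.63, 2.54 and 1.56. Of 8 follicular helper T cell genes, 2 were called higher and 2 lower, in a list of this size near the 20.2% and 11.8% of all genes. *Icos* and *Pdcd1* rose by 5.23 and 2.70, *Slamf6* and *Cd40lg* fell by 3.02 and 1.40, and *Bcl6* had 4.02 and 6.05 FPKM in the naïve libraries and 2.64 and 4.44 in the Th17 libraries.

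Most genes of the naïve state fell in Th17 cells. Of 17 quiescence and stemness factors, 1 was called higher and 12 lower (median -1.66). *Klf2*, which maintains quiescence and lymph node trafficking, had 257 and 221 FPKM in the naïve and 6.35 and 10.4 in the Th17 libraries, a difference of -4.71 (standard error 0.27, adjusted p = 5.93e-06, limma). *Klf3* fell from 62.1 and 80.9 to 1.31 and 1.94 FPKM, *Foxp1* from 37.9 and 36.4 to 3 and 3.17, and the antiproliferative gene *Btg2* from 128 and 116 to 13 and 13.6. *Foxo1*, *Txnip*, *Slfn2*, *Tob1*, *Btg1*, *Ets1* and *Lef1* fell by 1.11 to 2.69. *Tcf7*, the gene of TCF-1, fell from 735 and 741 to 51.1 and 67.3 FPKM, a difference of -3.63, but stood above Th1 (5.79 and 7.33) and Th2 (8.08 and 14.1) cells by 2.67 (standard error 0.22, adjusted p = 0.000255, limma). *Myb* was the member called higher, with 6.06 and 6.54 FPKM in the naïve libraries and 65 and 55.6 in the Th17 libraries. *Satb1*, *Bach2*, *Id3* and *Klf7* were not called, with differences of 0.56, -0.32, -0.41 and 0.40.

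The lymphoid homing list gave a like picture, with 7 of 13 members lower and 3 higher than in naïve cells. *Ccr7*, the receptor that guides cells into lymph nodes, fell from 327 and 310.4 to 150.5 and 160.3 FPKM, and *S1pr1*, which guides cells out of them, from 192 and 182 to 85.8 and 69.1. Both were higher in Th17 cells than in the mean of Th1 and Th2, by 1.54 and 2.01. *Itga4*, the α4 integrin, fell from 33.1 and 31.2 to 0.575 and 0.553 FPKM, and *Cd27* from 270.2 and 252 to 16.1 and 20.3. *Itgb7* fell by 1.45. *Igfbp4* rose from 182 and 213 to 497 and 589 FPKM, and *Ly6c1*, which has a neighbor of similar sequence in *Ly6c2*, from 0.61 and 2.9 to 641 and 639. *Cxcr4*, *Pecam1* and *Itgal* were not called, with differences of -0.37, -0.69 and 0.49. The fall of *Ccr7* lay close to the threshold of 1, and without naïve replicate 1 or without Th17 replicate 1 the number of chemokine receptors and of homing genes called lower was smaller by 1.

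**Figure D3:**
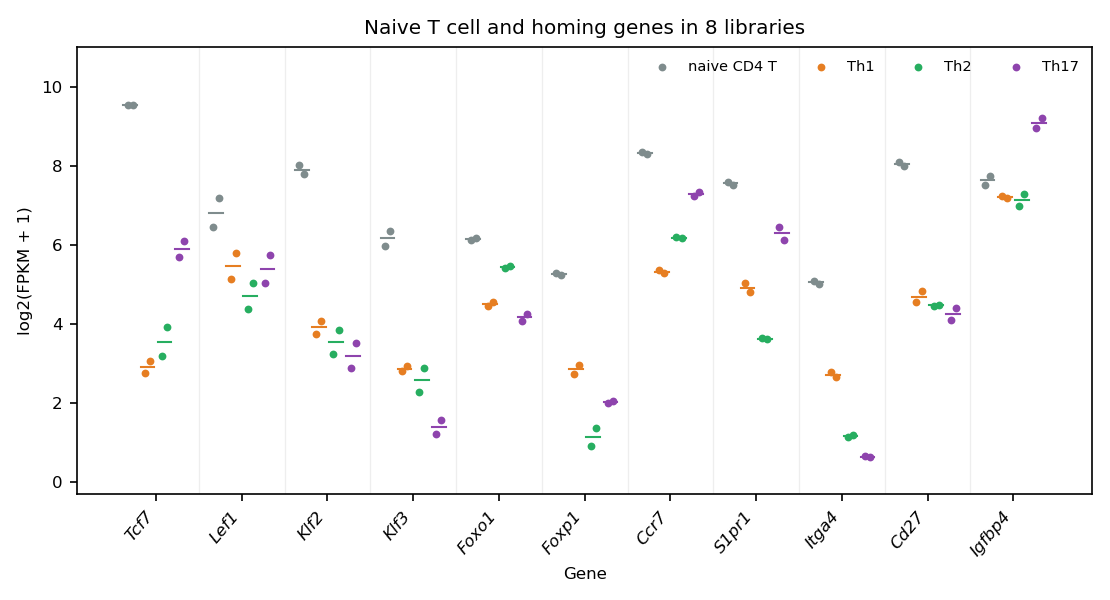
Expression of 11 naïve T cell and homing genes as log2(FPKM + 1) (y axis) in each of the 8 libraries, with points for libraries, short lines for means of 2 and colors for the 4 groups. In both Th17 libraries *Tcf7*, *Ccr7* and *S1pr1* lie between the naïve and the other effector libraries, *Itga4* and *Klf3* lie below every other library, and *Igfbp4* lies above.

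Most surface receptors of activated T cells rose. Of 15 tested checkpoint and costimulatory receptors, 11 were called higher and 2 lower (median 3.31). The inhibitory receptor *Ctla4* had 5.96 and 6.83 FPKM in the naïve and 173 and 194 in the Th17 libraries. The costimulatory *Icos* rose from 4.48 and 5.78 to 245 and 213 FPKM, and the inhibitory *Tigit* from 0.403 and 1.91 to 48.2 and 41.6 and *Lag3* from 0.388 and 1.44 to 19 and 25.6. *Cd200* rose from 2 and 2.76 to 44.8 and 39.7 FPKM and exceeded the mean of Th1 and Th2 by 2.38. *Cd28*, the main costimulatory receptor of naïve cells, rose by 1.28. *Cd96* and *Cd27* fell by 3.38 and 3.78. *Btla* and *Cd226* were not called against naïve cells (0.33 and -0.80) but were above the mean of Th1 and Th2 by 1.53 and 2.16. All 9 receptors that the study named on effector cells were higher in Th17 than in naïve cells, with differences of 2.30 to 8.74. That list was chosen by the study on these libraries, so its direction is not independent evidence. Of them, *Ltb4r1* differed from the mean of Th1 and Th2, by 1.04. Of 10 genes that the study associated with CD30, 7 were called higher and 2 lower. *Tgm2*, the gene of transglutaminase 2, had 0.991 and 1.29 FPKM in the naïve and 426 and 599 in the Th17 libraries, and its difference of 1.66 from the mean of Th1 and Th2 came with Th2 values of 432 and 431 FPKM and Th1 values of 57.5 and 59.8. *Fam26f* and *Rtp4* fell by 3.48 and 4.38, and *Myo6* was not called (-0.51).

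Of 11 tested TNF superfamily ligands, 7 were called higher and 3 lower, against 20.2% and 11.8% of all genes tested. *Tnfsf14*, which encodes LIGHT, rose from 0.925 and 1.01 to 10.3 and 12.1 FPKM, *Tnfsf9* from 2.04 and 2.22 to 17.4 and 16.9 and *Tnfsf11*, the gene of RANKL, from 0.473 and 0.713 to 3.54 and 3.69. *Tnfsf8*, which encodes the ligand of CD30, rose from 20.6 and 26.1 to 64.8 and 58.5 FPKM and exceeded the mean of Th1 and Th2 by 2.01. *Tnfsf10*, the gene of TRAIL, *Fasl* and *Cd40lg* fell by 1.78, 1.28 and 1.40. Of 15 tested chemokine receptors, 11 were called higher and 2 lower. *Ccr2*, a receptor of inflammatory monocyte chemokines, had 0.619 and 0.882 FPKM in the naïve libraries and 95.6 and 62.5 in the Th17 libraries, a difference of 5.49 (standard error 0.22, adjusted p = 1.07e-06, limma). *Ccr4* rose from 0.963 and 1.78 to 89.8 and 85.3 FPKM. *Cxcr2* was at 0 in both naïve libraries, 6.56 and 5.31 FPKM in Th17, 9.16 and 10.2 in Th2 and 81.2 and 82.4 in Th1. *Ccr9*, the receptor for homing to the small intestine, fell from 9.27 and 8.81 FPKM to 0.0301 and 0.0302. Of 16 tested integrin subunits, 7 were called higher and 4 lower, beside the same 20.2% and 11.8% of all genes. *Itga3*, an α chain of laminin receptors, had 0.479 and 0.51 FPKM in the naïve libraries and 85.7 and 107 in the Th17 libraries, a difference of 6.02 (standard error 0.12, adjusted p = 1.14e-07, limma). It exceeded the mean of Th1 and Th2 by 2.92. *Itgb5*, *Itgav* and *Itgb1* rose by 3.05, 1.92 and 1.14, whereas *Itgb3* and *Itga6* fell by 1.99 and 1.27.

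Components of TCR signaling were lower in part. Of 25 genes of the TCR complex and proximal signaling, 2 were called higher and 11 lower, and with the difference of 1 not required 17 were lower (adjusted p under 0.05, limma), against 31% of all genes tested. With quantile normalization 15 of the 25 were called lower, where the count over all 11088 genes also grew, from 1309 to 1898. *Lat*, the membrane adaptor, had 511 and 533 FPKM in the naïve libraries and 121 and 175 in the Th17 libraries, a difference of -1.83 (standard error 0.20, adjusted p = 0.000137, limma). *Trat1* fell from 57.7 and 67.3 to 8.74 and 9.31 FPKM and *Ubash3a*, an inhibitor of TCR signaling, from 30.0 and 39 to 7.59 and 10.2. *Cd247*, which encodes the ζ chain, and the phosphatase *Ptprc* fell by 1.46 and 1.49. *Cd3d*, *Cd3e* and *Cd3g* had differences of -0.72, -0.77 and -0.77, under the fold threshold. *Themis* and *Ptpn22* rose by 1.41 and 1.35. *Fyn* fell by 1.62, but its estimation had failed in at least 1 library, and with voom on implied fragment numbers its difference was 4.89 (adjusted p = 0.161, limma). *Cd5* and *Cd6*, which restrain TCR signals, were close to naïve levels (0.34 and -0.17, not called) and above the mean of Th1 and Th2 by 1.65 and 1.31.

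Among 11 tested AP-1 and BATF factors, 6 were called higher and 2 lower. *Batf3* rose from 0.172 and 0.0863 to 269 and 241 FPKM, *Fosl2* from 0.825 and 0.682 to 46.9 and 54.5 and *Atf3* from 0.123 and 0.0495 to 22.4 and 26.4. *Fos* fell from 40.1 and 29.6 to 3.86 and 3.55 FPKM and *Jun* from 39.1 and 35.5 to 6.09 and 8, and both were below the mean of Th1 and Th2. *Junb*, which pairs with BATF, had 366 and 298 FPKM in the naïve libraries and 298 and 376 in the Th17 libraries (0.02, not called). The list of NR4A, EGR and NFAT factors had 1 member higher and 2 lower of 8, against 20.2% and 11.8% of all genes. These calls were those of NFAT genes. The NR4A and EGR genes, immediate early genes of TCR stimulation, were not called. *Nr4a1* and *Egr3* were not called against naïve cells (-0.46 and 0.15) but were above the mean of Th1 and Th2 by 1.47 and 1.49. *Nfatc2* rose by 1.64, and *Nfatc1* and *Nfatc3* fell by 1.23 and 1.06.

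Cell cycle genes moved together. All 45 mitosis genes rose (median 3.86, range 1.34 to 6.06), against 20.2% of the genes tested. For members under 1 FPKM in both naïve libraries, such as *Ube2c* and *Aurkb*, the filter set the direction. *Ube2c*, which helps the anaphase-promoting complex destroy cyclins, had 0.601 and 0.784 FPKM in the naïve and 107 and 117 in the Th17 libraries, a difference of 6.06 (standard error 0.10, adjusted p = 7.76e-08, limma). *Top2a* rose from 1.18 and 1.93 to 112 and 124 FPKM, *Birc5*, the gene of survivin, from 1.02 and 1.76 to 90.2 and 95.2 and *Aurkb* from 0.274 and 0.25 to 45.7 and 48.5. Against the mean of Th1 and Th2, none of the 45 passed both thresholds, where 3.76% of all genes were called higher and 1.11% lower. The differences ran from -0.53 to 0.32 and 41 of the 45 were negative (median -0.20, against 0.13 over all genes). Without the fold requirement 12 of the 45 were lower at an adjusted p-value under 0.05 (limma), against 7.4% of all genes, and 0 were higher. Of 41 DNA replication genes, 34 were called higher and 0 lower (median 1.93), and the other 7 had differences of 0.50 to under 1 with adjusted p-values under 0.05 (limma). *Rrm2*, a subunit of ribonucleotide reductase, rose from 1.37 and 1.42 to 96.3 and 94.1 FPKM, *Uhrf1* from 1.18 and 1.39 to 50.2 and 57.6 and *Tk1* from 1.12 and 1.36 to 35.9 and 44.4. *Rfc3*, a clamp loader subunit, rose from 5.75 and 5.34 to 133 and 127 FPKM and was the list's member above the mean of Th1 and Th2 (1.48). Of 13 tested CDK inhibitors, D cyclins and their partners, 7 were called higher and 1 lower. The inhibitor genes *Cdkn1a* and *Cdkn2a* rose, the first from 0.102 and 0.36 to 133 and 161 FPKM and the other from 0 and 0.0679 to 12.1 and 8.02, along with *Cdk6* (3.77) and *Ccnd3* (1.41), and *Cdkn1b*, the gene of p27, fell from 76.6 and 65.8 to 28.8 and 26.7.

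Promoters of 2 mitosis genes are shown because this list moved as a whole. In the 250 bases before the start, capitals mark CCAAT, bound by NF-Y, and TTTGAA, letters of the cell cycle homology region. Both strands were searched, and a match of letters is a description and not a bound site. *Cdc20* is read from chr4:118437344-118437593 and *Ccnb2* from chr9:70421555-70421804, both on the minus strand (RefSeq, GRCm38.p6).
Cdc20: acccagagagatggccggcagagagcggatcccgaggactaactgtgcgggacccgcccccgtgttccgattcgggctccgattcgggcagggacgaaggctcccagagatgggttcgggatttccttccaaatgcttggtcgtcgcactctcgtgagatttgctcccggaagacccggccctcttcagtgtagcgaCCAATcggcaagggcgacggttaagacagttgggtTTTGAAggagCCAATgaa
Ccnb2: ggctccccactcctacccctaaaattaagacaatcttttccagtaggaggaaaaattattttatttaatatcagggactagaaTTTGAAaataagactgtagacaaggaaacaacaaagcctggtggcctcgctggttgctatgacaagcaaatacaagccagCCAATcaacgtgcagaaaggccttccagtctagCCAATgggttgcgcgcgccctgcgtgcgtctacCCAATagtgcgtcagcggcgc
*Cdc20* held CCAAT 53 and 8 bases and TTTGAA 18 bases before the start, and *Ccnb2* held CCAAT 87, 54 and 21 bases before it, at a spacing of 33 bases, and TTTGAA 167 bases before it. CCAAT was in 77.5% of the 40 promoters found for 38 of the mitosis genes and in 35.4% of the 10008 promoters, and TTTGAA in 37.5% and 10.5%. In the 39 promoters found for 33 of the DNA replication genes, at least 1 of the E2F sites TTTCGCGC, TTTGGCGC and TTTCCCGC was in 23.1%, against 3.17% of all.

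Most genes of glycolysis rose. Of 23 members, 19 were called higher and 1 lower (median 2.88), and none differed from the mean of Th1 and Th2 past the thresholds. Since 3.76% of all genes were called higher and 1.11% lower in that comparison, a count of 0 among 23 is near the share of all genes. *Slc16a3*, a lactate exporter, had 0.38 and 0.422 FPKM in the naïve and 91 and 129.9 in the Th17 libraries, a difference of 6.29 (standard error 0.20, adjusted p = 3.62e-07, limma). *Aldoc* rose from 0.612 and 0.703 to 125 and 131 FPKM, *Tpi1* from 12.5 and 12.8 to 664 and 797 and *Pgk1* from 51.2 and 47.6 to 1356 and 1484. *Ldhb*, the subunit that favors lactate oxidation, was the member called lower, from 23.4 and 21.5 to 9.4 and 9.3 FPKM. *Eno3* was not called (-0.56). *Gapdh*, *Eno1* and *Tpi1* have processed pseudogenes of similar sequence, so their levels are uncertain. Of 16 tested hypoxia-inducible genes, 12 were called higher and 0 lower (median 2.69). *Egln3*, a prolyl hydroxylase that marks HIF-1α for destruction, had 3.37 and 3.27 FPKM in the naïve libraries and 242 and 254 in the Th17 libraries, *Bnip3* rose from 2.53 and 1.78 to 173 and 151 and *Vegfa* from 0.179 and 0.169 to 27.1 and 31.6. *Ero1l* was the member below the mean of Th1 and Th2 (-1.14). *Ddit4*, *Pfkfb3*, *Pfkfb4* and *Ankrd37* were not called, with differences of 0.08 to 0.37. The hypoxia response element core ACGTG was in 72.2% of the 18 promoters found for 14 genes of this list and in 22.6% of the 10008.

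Few mitochondrial genes passed the thresholds, where 20.2% of all genes were called higher and 11.8% lower. Of 18 genes of the tricarboxylic acid cycle, 2 were called higher and 1 lower (median 0.25), and the higher count was 3 without naïve replicate 1 and 1 without naïve replicate 2. *Cs*, the gene of citrate synthase, rose by 1.02 and *Idh2* fell by 1.37. Of 86 tested oxidative phosphorylation subunits, 10 were called higher and 0 lower (median 0.48), a count that was 21 without naïve replicate 1 and 7 without naïve replicate 2. The 3 largest of these rises were tissue-restricted subunits of cytochrome c oxidase, *Cox6b2*, *Cox7a1* and *Cox4i2*. *Cox6b2* had 0.683 and 0.758 FPKM in the naïve libraries and 31.1 and 27.4 in the Th17 libraries, *Cox7a1* 0.542 and 1.62 FPKM in the naïve libraries and 29 and 28 in the Th17 libraries, and *Cox4i2* was at 0 in both naïve libraries and at 11 and 11.3 in the Th17 libraries. Of 78 tested cytosolic ribosomal proteins 2 were called higher and 1 lower, of 76 mitochondrial ribosomal proteins 6 and 0, of 37 proteasome subunits 3 and 1, and of 18 cytosolic aminoacyl-tRNA synthetases 0 and 0. Each of these shares was below that of all genes. The higher counts moved with single libraries. For cytosolic ribosomal proteins the count was 4 without naïve replicate 1 and 6 without Th17 replicate 1, for mitochondrial ribosomal proteins 3 without naïve replicate 2 or Th17 replicate 2, for synthetases 2 without naïve replicate 2 or Th17 replicate 1, and for proteasome subunits 1 without Th17 replicate 2 and 2 without either naïve library. The cytosolic ribosomal protein called lower was lost without naïve replicate 2 or Th17 replicate 1. Without the fold requirement 14 of the 18 synthetases were higher at an adjusted p-value under 0.05 (limma), against 36.7% of all genes, with a median difference of 0.49. *Psmb10*, an immunoproteasome subunit induced by interferon, was the proteasome gene called lower, with 98.2 and 108 FPKM in the naïve libraries and 29.9 and 35.9 in the Th17 libraries.

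Most genes of lipid synthesis rose. For the lists in this paragraph, the shares over all genes tested were 20.2% higher and 11.8% lower. Of 23 cholesterol synthesis genes, 17 were called higher and 0 lower (median 1.63), within a narrow range that reached 2.44. *Fdps* had 19.7 and 20.8 FPKM in the naïve libraries and 104 and 126 in the Th17 libraries, a difference of 2.44 (standard error 0.13, adjusted p = 3.98e-06, limma). *Hmgcs1* rose from 12.1 and 11.3 to 64.8 and 60.6 FPKM and *Sqle* from 9.33 and 7.52 to 40.9 and 42.7. *Srebf2*, the regulator of these genes, was under the fold threshold (0.53). CCAAT was in 83.3% of the 18 promoters found for 15 of these genes, against 35.4% of the 10008 promoters. It was also in 94.1% of the 17 promoters found for ER folding genes. The sterol regulatory element TCACCCCA was in 11.1% of the 18, against 1.42% of the 10008. Of 13 tested fatty acid synthesis genes, 7 were called higher and 0 lower. *Fads2*, a desaturase, was at 0.0335 and 0 FPKM in the naïve and 27.3 and 35.7 in the Th17 libraries, *Scd2* rose from 12.7 and 13.8 to 211 and 215 and *Scd1* from 0.488 and 0.658 to 17.8 and 21.5. Of 18 tested amino acid supply and one-carbon genes, 7 were called higher and 0 lower. *Asns*, asparagine synthetase, rose from 0.101 and 0.127 to 8.58 and 9.4 FPKM and *Mthfd1l* from 9.82 and 11.3 to 59.3 and 67, whereas *Atf4* and *Slc3a2* had differences of 0.00 and -0.01 and were not called. Of 20 ER folding genes, 7 were called higher and 1 lower, the latter count being 2 without naïve replicate 2 or either Th17 library. *Xbp1* rose from 26.9 and 24.9 to 256 and 250.2 FPKM but was lower than the mean of Th1 and Th2 (-1.09), and *Hspa5*, the chaperone BiP, was not called (0.47).

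**Figure D4:**
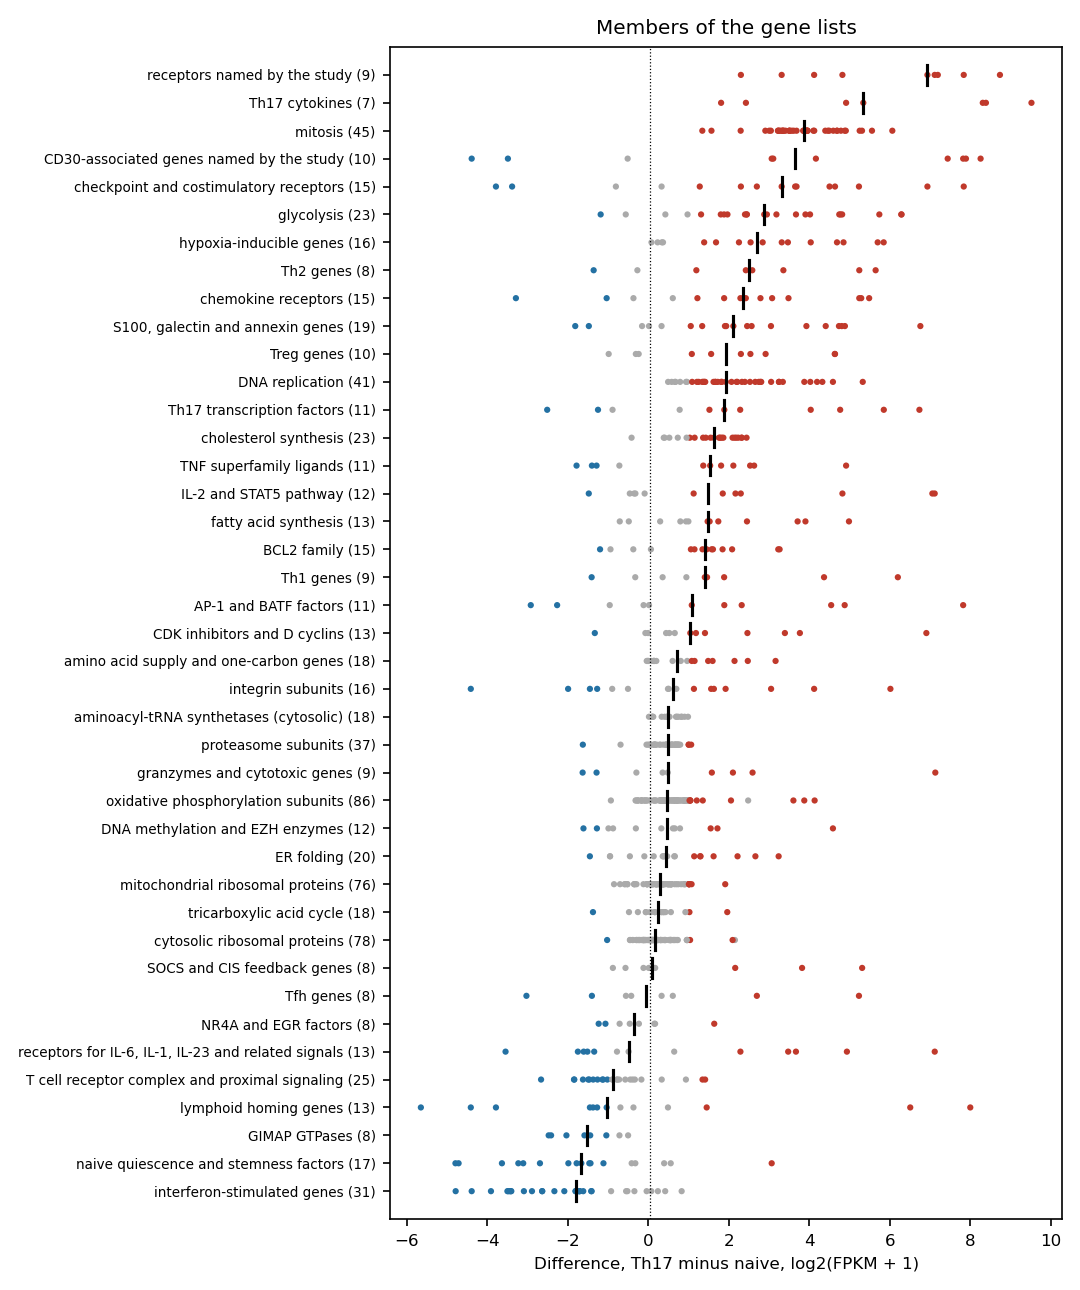
Difference between Th17 and naïve cells on the log2(FPKM + 1) scale (x axis) for the tested members of 41 gene lists (rows, with the number tested in brackets), where red points were called higher, blue points lower and gray points neither, black bars are list medians and the dotted line is the median of all genes. Over 50% of tested members were called higher in 21 lists and lower in 4, which were the interferon-stimulated, naïve quiescence, GIMAP and lymphoid homing genes.

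Most listed interferon-stimulated genes fell. The list left out *Ifitm1* and *Ifitm2*, interferon-induced genes that rose by 9.29 and 8.05. Of 31 tested members, 0 were called higher and 22 lower (median -1.80), against 11.8% of all genes called lower. *Iigp1*, a GTPase of the interferon-γ response, had 28.7 and 59.8 FPKM in the naïve and 0.459 and 0.636 in the Th17 libraries, a difference of -4.78 (standard error 0.31, adjusted p = 1.06e-05, limma). *Rtp4* fell from 20.1 and 30.9 to 0.34 and 0.151 FPKM, *Irf7*, which amplifies type I interferon, from 52.5 and 89.5 to 3.89 and 3.42 and *Oas2* from 7.31 and 18.9 to 0.11 and 0.17. Naïve replicate 2 was higher than naïve replicate 1 in 31 of the 31 genes, with a median ratio of 1.54, compared with 1.01 over all genes tested. The count was 22 without naïve replicate 2 and 23 without naïve replicate 1. *Stat2*, *Isg20*, *Gbp3* and *Oas3* were not called, with differences of 0.08, 0.24, 0.42 and 0.83. The Th17 cultures, like the Th2 cultures, held anti-IFN-γ Ab, which Th1 cultures lacked, and its part in these levels was not tested. Against the mean of Th1 and Th2, 5 members were lower, including *Irf1* (-1.17) and *Igtp* (-1.15), and 0 higher. Over all genes, 1.11% were called lower and 3.76% higher in that comparison. The list as a whole was not shifted down, with a median difference of 0.05, 18 members positive and 13 negative.

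The promoter of *Ifit1*, an inhibitor of viral translation that fell from 7.77 and 16.1 to 0.172 and 0.153 FPKM, is shown because this list had the most genes called lower. Capitals mark the interferon-stimulated response element, TTTC and TTTC with any 2 bases between them, in the 250 bases before the start (chr19:34640639-34640888, plus strand, RefSeq, GRCm38.p6), at 104 to 95 and 85 to 76 bases before it.
Ifit1: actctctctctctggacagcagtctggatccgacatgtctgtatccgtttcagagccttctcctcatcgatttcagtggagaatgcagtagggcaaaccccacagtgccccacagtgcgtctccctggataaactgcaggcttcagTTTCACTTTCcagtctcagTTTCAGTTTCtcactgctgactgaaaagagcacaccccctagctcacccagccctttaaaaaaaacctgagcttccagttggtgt
This motif, on both strands, was in 37.9% of the 29 promoters found for 22 genes of the list and in 2.64% of the 10008 promoters.

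Most GIMAP genes, a cluster of GTPases known for the survival of resting lymphocytes, fell as well. Of the 8, 0 were called higher and 6 lower (median -1.51), and the other 2 had differences of -0.71 and -0.50. *Gimap4* had 894 and 752 FPKM in the naïve libraries and 158 and 137 in the Th17 libraries, a difference of -2.47 (standard error 0.13, adjusted p = 4.13e-06, limma). *Gimap6* fell from 535 and 489 to 97.9 and 92.8 FPKM. *Gimap3*, *Gimap4* and *Gimap7* were also lower than the mean of Th1 and Th2, by 1.06, 1.24 and 1.11. *Gimap8* fell by 2.03, but its estimation had failed in at least 1 library. In a test with voom on implied fragment numbers, the differences of *Gimap4* and *Gimap8* turned to 0.60 and 4.54 (adjusted p = 0.788 and 0.257, limma).

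**Figure D5:**
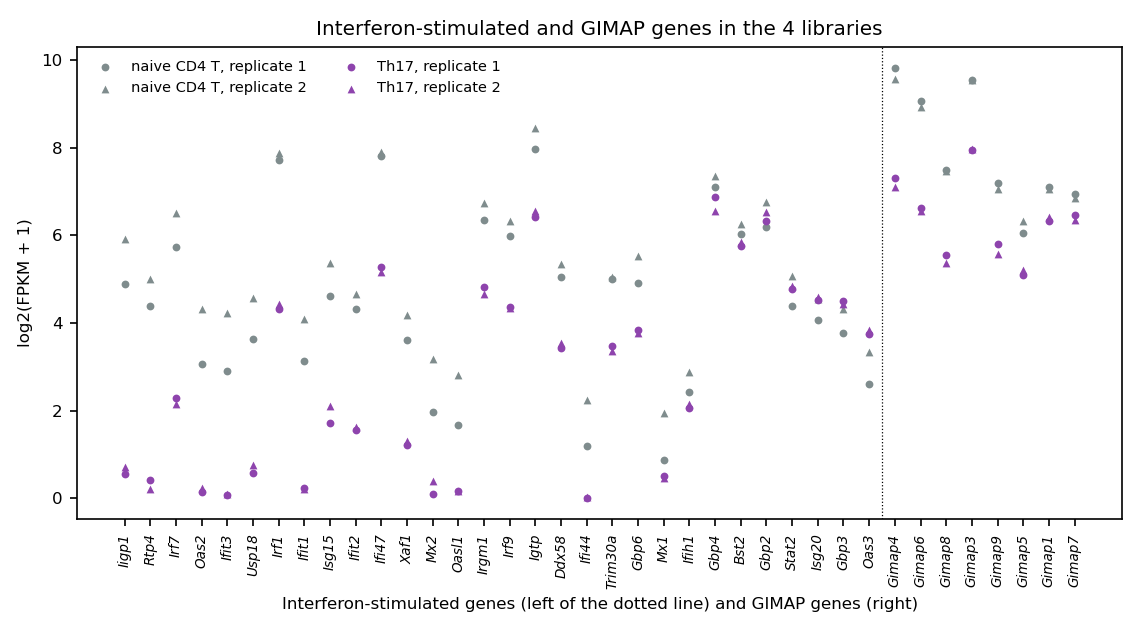
Expression as log2(FPKM + 1) (y axis) of 30 interferon-stimulated genes and 8 GIMAP genes (x axis, ordered by difference within each list) in the 2 naïve libraries (gray) and the 2 Th17 libraries (purple), with circles for replicate 1 and triangles for replicate 2. The gray triangle lies above the gray circle in all 30, and the purple symbols lie below both gray symbols in all 8 GIMAP genes, as they do for 38.9% of all genes tested.

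Among 9 tested granzymes and cytotoxic genes, 4 were called higher and 2 lower, against 20.2% and 11.8% of all genes. *Gzmb* rose from 0.252 and 0.941 to 191 and 248 FPKM, below the 1606 and 1823 of Th1 cells, and *Prf1*, the gene of perforin, fell from 15.7 and 17.5 to 4.81 and 4.57. Of 15 tested BCL2 family genes, 11 were called higher and 1 lower, with 2 lower without naïve replicate 2. The antiapoptotic *Bcl2* rose from 22.1 and 20.8 to 84.5 and 75.2 FPKM and *Bcl2l1* from 7.61 and 7.03 to 32.9 and 35.7, as did the proapoptotic *Bax* and *Pmaip1*, by 1.42 and 3.23. *Bcl2l11*, the gene of BIM, fell by 1.19. The *Bcl2a1a*, *Bcl2a1b* and *Bcl2a1d* copies were above naïve cells and above the mean of Th1 and Th2, but share sequence. Of 19 S100, galectin and annexin genes, 14 were called higher and 2 lower (median 2.12). *Anxa2* had 5.6 and 5.89 FPKM in the naïve libraries and 679 and 783 in the Th17 libraries, a difference of 6.76 (standard error 0.12, adjusted p = 7.88e-08, limma), *Lgals1* rose from 59.5 and 55.6 to 1549.7 and 1925 and *Vim*, which encodes the filament protein vimentin, from 171 and 175 to 3586 and 3798. *Lgals8* and *Lgals9* fell by 1.81 and 1.47. Of 12 DNA methylation and EZH genes, 3 were called higher and 2 lower, near the 20.2% and 11.8% of all genes, and the lower count was 4 without naïve replicate 1. *Uhrf1*, *Ezh2* and *Tet2* rose by 4.59, 1.72 and 1.55, and *Tet1* and *Tet3* fell by 1.27 and 1.61.

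Markers of other cell types were low in the 4 libraries, with exceptions, and their part in the differences above was not tested. Of 8 B cell markers 4 were tested and 0 called. *Ms4a1*, which encodes CD20, was at most 0.518 FPKM, and the summed level of the list was 8.0 to 10.2 FPKM in the naïve and 13.7 to 15.0 in the Th17 libraries. Of 8 macrophage and monocyte markers 5 were tested, with *Cd14* higher (0.203 and 0.475 FPKM in the naïve libraries and 4.41 and 3.75 in the Th17 libraries) and *Csf1r* lower (3.84 and 3.2 FPKM in the naïve libraries and 0.692 and 0.756 in the Th17 libraries), and a summed level of 19.8 to 21.3 FPKM in the naïve and 24.7 to 26.2 in the Th17 libraries. *Fcgr1*, a defining macrophage receptor, was at 0 in both Th17 libraries. Of 6 dendritic cell markers 1 was tested, *Itgax* (0.70, not called). Their summed level was 0.728 to 0.815 FPKM in the naïve and 3.90 to 3.93 in the Th17 libraries, where *Itgax*, *Flt3* and *Zbtb46* made up most of it and *Siglech* was at 0. Of 5 MHC class II genes *H2-Ab1* was called higher, from 11.5 and 11.2 to 58.3 and 70.4 FPKM, *Cd74* had 44.8 and 42.2 FPKM in the naïve libraries and 45.3 and 49.4 in the Th17 libraries, and the summed level was 104 to 106 FPKM in the naïve and 149 to 172 in the Th17 libraries.

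None of the 9 neutrophil and precursor markers that could be matched was tested, and their summed level was 0.506 to 1.61 FPKM in the naïve libraries, 8.70 in Th17 replicate 1 and 0.708 in Th17 replicate 2. *Mpo* and *Elane*, made by neutrophil precursors, were at 3.02 and 3.6 FPKM in Th17 replicate 1 and at 0.106 and 0 in Th17 replicate 2. The other effector groups differed likewise between their libraries, with *Mpo* at 4.89 and 2.46 FPKM in replicate 1 of Th1 and of Th2 and at 0 and 0.0425 in replicate 2, and *Elane* at 2.59 and 3.71 in replicate 1 and at 0 in replicate 2 of both. Both CD8 genes fell, *Cd8b1* with 90.5 and 52.8 FPKM in the naïve libraries and 12.6 and 9.81 in the Th17 libraries and *Cd8a* with 2.94 and 1.77 FPKM in the naïve libraries and 0.268 and 0.0429 in the Th17 libraries, a summed level of 54.5 to 93.4 FPKM in the naïve and 9.85 to 12.8 in the Th17 libraries. Of 5 NK cell markers *Klrk1* was tested and called higher, at 3.03 and 3.13 FPKM in the Th17 libraries, where *Ncr1* was at 0 and the summed level was 4.21 to 4.55 FPKM, against 0.308 to 0.689 in the naïve libraries. Of 6 erythroid and platelet markers 2 were tested. *Hba-a1* fell from 6.04 and 5.68 to 0.7 and 0.466 FPKM and *Pf4* rose to 5.83 and 4.96, while the summed level was 6.29 to 7.76 FPKM in the naïve and 7.36 to 7.98 in the Th17 libraries. The 4 basophil and mast cell markers summed to at most 0.105 FPKM in any of the 4 libraries.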

How the data were processed

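RNA was sequenced in 2 libraries each of naïve CD4 T, effector Th1, effector Th2 and effector Th17 cells. According to the methods and the submitters' processing notes, the authors aligned reads of 50 bases to mm10 with Bowtie 0.12.8 and TopHat 1.3.2 and computed FPKM per gene with Cufflinks 2.0.2. They deposited, for each library, FPKM with the bounds of its confidence interval and an estimation status. The gene annotation is not given in the sources used here. The methods name an unstranded kit and the labels a stranded one, so reads of overlapping and antisense genes cannot be told apart. FPKM depends on all other RNAs in a library, so highly expressed genes lower the values of the rest. Genes with near-identical copies, among them *Il22* and *Iltifb*, *Lilrb4* and *Gp49a*, the *Bcl2a1* and *Ly6c* genes and ribosomal protein genes with pseudogenes, are uncertain.

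Rows with the same symbol were summed. Values were fitted as log2(FPKM + 1) by lmFit and trended eBayes of limma 3.58.1 (R 4.3.3), using 4 group means and all 8 libraries, so that the groups shared one estimate of the spread (4 residual and 2.95 prior degrees of freedom). Tests were two-sided, with Benjamini-Hochberg adjustment over 11088 genes. A permutation of 2 libraries against 2 could not pass 0.05. Depth was implied by the width of the confidence intervals, on the assumption that it reflects counting error only. The fit was checked for known answers before use. Tables and figures were made with Python 3.11.15, pandas 2.3.3, numpy 2.4.6 and matplotlib 3.10.9, and promoters were read from RefSeq on GRCm38.p6, which has the coordinates of mm10.

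The comparison and the gene lists were chosen with earlier results of these data known. Genes were named by these rules: *Il17a*, *Il17f* and *Il23r*, the 12 largest rises and falls among called genes whose groups did not overlap, the 10 largest differences in each direction from the mean of Th1 and Th2, members of lists of up to 18, in longer lists the 4 largest rises and falls, members against the majority and members not tested, and cell type markers. *Itgb1*, *Cd247*, *Ptprc*, *Cd6*, *Cdc20*, *Ccnb2*, *Gapdh*, *Eno1*, *Sqle*, *Hspa5*, *Irf1*, *Igtp*, *Ifit1* and *Vim* fall outside these rules and were chosen after their values were seen. Alternatives changed the value added before the logarithm, the filter, the scaling, the test, the fold threshold, the handling of repeated symbols and of estimation status, and the libraries in the fit. Libraries of the same number deviated together (r of replicate differences across genes 0.157 to 0.335), but no label says what the number marks. Some listed genes are counted but not reported here by name.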

Additional observations from a re-analysis of the deposited data

Results flagged for a closer look

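The results below stood out because Th17 cells differed from the mean of Th1 and Th2 by limma's test of that difference, with both Th17 libraries outside the range of the other 4 effector libraries. They are the 10 largest differences in each direction.

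Higher in Th17 cells were *Il17f* (9.36), *Il17a* (8.02), *Il22* (7.38) and its copy *Iltifb* (6.77), each already described. *Lum*, which encodes the extracellular matrix protein lumican, differed by 5.89, with 81.5 and 76.2 FPKM in the Th17 libraries, 0 and 0 in the naïve, 0.348 and 0.128 in the Th1 and 0.49 and 0.444 in the Th2 libraries. *Crispld2* differed by 5.23, with 61 and 77.3 FPKM in the Th17, 1.53 and 1.48 in the Th1 and 0.29 and 0.471 in the Th2 libraries. *Timp1*, an inhibitor of matrix metalloproteinases, differed by 4.81, with 125 and 129.6 FPKM in the Th17, 0.51 and 0.899 in the naïve, 3.81 and 3.95 in the Th1 and 3.79 and 2.82 in the Th2 libraries. *Snord49b* (8.89), *Snord95* (8.78) and *Mir1893* (5.48) are short RNAs whose values rest on at most 4 implied fragments, and each was also above 0 in naïve replicate 2. The estimation of *Mir1893* had failed in at least 1 library.

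Lower in Th17 cells was *Gzma* (-3.67), with 22.3 and 41 FPKM in the Th17, 61.1 and 75.5 in the Th1 and 2601 and 2041 in the Th2 libraries, so most of that difference lay in Th2 cells. *Maf* (-2.55) was likewise highest in Th2 cells. *Gzmb* (-1.98) and *Cxcr2* (-2.11) were highest in Th1 cells, as given above. *Prdm1* (-2.12), the gene of Blimp-1, had 3.17 and 3.12 FPKM in the Th17, 19.8 and 25.2 in the Th1 and 12.9 and 13 in the Th2 libraries. *Entpd1* (-1.92), which encodes the ectonucleotidase CD39, had 5.99 and 4.75 FPKM in the Th17, 31.6 and 37.6 in the Th1 and 14.9 and 15.4 in the Th2 libraries. *F2r* (-2.66), a thrombin receptor, had 4.48 and 4.26 FPKM in the Th17, 14.3 and 15.7 in the Th1 and 68.3 and 74.3 in the Th2 libraries. The remaining differences were those of *Il6st* (-2.34), *Mboat1* (-2.16) and *Itih5* (-2.08), all 3 at lower FPKM in both Th17 libraries than in each Th1 and Th2 library.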

How the results depend on the processing

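The 2236 genes higher and 1309 lower than in naïve cells became 1387 higher at a mean of at least 5 FPKM, 4069 and 3432 without a fold threshold, and 1028 and 312 at a difference of at least 2. Against Th1 and Th2, the 417 higher genes became 675 with a pseudocount of 0.1, 247 at 5 FPKM, 662 with voom on implied fragments, 2583 without a fold threshold and 97 at a difference of at least 2. The 123 lower genes became 185 without a filter and 185 with a filter over all 8 libraries, 70 at 5 FPKM, 209 with quantile normalization, 820 without a fold threshold and 13 at a difference of at least 2. At that difference, 10 lists in place of 21 had over 50% of tested members higher and 0 in place of 4 lower. Leaving out each library gave 2207 to 2302 higher and 1279 to 1369 lower genes against naïve cells, 385 to 455 and 119 to 133 against Th1 and Th2, and 20 to 21 lists higher and 3 to 4 lower. Where leaving out a library left 1 in a group, that library was assumed to vary like the other groups. Adding a replicate block gave 2240 higher and 1316 lower genes against naïve cells and 423 and 125 against Th1 and Th2. It changed no call of the 570 genes named or held in the shorter lists, and 11 in place of 10 oxidative phosphorylation subunits were higher. The labels do not say that libraries of the same number were cultured together.

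Against naïve cells, voom turned *Fyn* to 4.887 (adjusted p = 0.1613, range over alternatives 7.908e-06 to 0.1613, limma), *Gimap4* to 0.6 (0.7879, range 1.801e-06 to 0.7879) and *Gimap8* to 4.543 (0.2567, range 5.992e-06 to 0.2567). *Fyn* and *Gimap8* had 0 implied fragments in a library whose estimation had failed, and for *Gimap4* the cause was not tested. *Mir1893* ranged from -1.56 without naïve replicate 1 (adjusted p = 0.01167, range 7.542e-05 to 0.6472, limma) to 5.479 without naïve replicate 2. Against Th1 and Th2, voom turned *Il13* from -0.3019 to 1.237 (adjusted p = 0.03132, limma) and *Klrk1* from -0.4629 to 1.983 (0.01224, range 0.001096 to 0.09567). A pseudocount of 0.1 also made them positive, at 0.851 and 0.6443, under the fold threshold. *Klrk1* was at 28.2 and 30.4 FPKM in the Th1 libraries and at 0.0111 and 0.0787 in the Th2 libraries. The cause of these changes was not tested. Over 570 listed genes, 12058 of 12451 values kept their call (higher, lower or not called) against naïve cells and 12136 of 12451 against Th1 and Th2. A change of sign was not counted where a gene was called in neither fit. Depth limits low values, and genes that averaged under 1 FPKM over the naïve and Th17 libraries were not tested. Tested genes could still lie near 0 in a group, as *Il17a* did in naïve cells.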
